A study of Homo sapiens with 6 samples.

Results

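The chloride intracellular channel (CLIC) family, the genes CLIC1 to CLIC6, was described across 6 Affymetrix arrays of A549, a human cell line established from a lung adenocarcinoma. The cells carried either a lentiviral short hairpin RNA against MRPL35, a gene of the mitochondrial ribosome (group KD, 3 arrays), or a lentiviral control hairpin (group NC, 3 arrays), and both groups shared RPMI-1640 culture medium containing serum. The labels do not say how many hairpins were used, how long after infection RNA was taken, whether the cells were a clone or a mixed culture, or whether arrays of one group stand for independent cultures. Errors and p-values therefore measure the spread between these arrays, which may be technical. One label field of NC replicates 2 and 3 names another cell line number, while another field gives A549 for them, and they were used as A549. Members were all probe sets whose platform annotation gives exactly 1 symbol, equal to a CLIC gene. These are 15 of 45278 probe sets with 1 symbol, and 6 of 18244 genes. The family was selected on the measured log2 difference of CLIC3 between KD and NC. Every KD to NC difference of a CLIC gene below is therefore a description, with its standard error and with no p-value. Counts of members called by limma are given only beside those of all features, and nothing is read from them.

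CLIC proteins are small proteins that exist both as soluble forms in the cytosol and nucleus and as forms attached to membranes. Their soluble fold is that of the glutathione transferases, with a glutaredoxin-like amino-terminal domain, and several members have oxidoreductase activity in vitro. Despite the name, whether they act as chloride channels in living cells is debated, and they are best known for roles at the cortical cytoskeleton, in endosomes and in tube formation by epithelial and endothelial cells. CLIC1 and CLIC4 are expressed in most tissues, while CLIC3, CLIC5 and CLIC6 are more restricted.

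Promoter windows are shown for CLIC1, CLIC2 and CLIC3, the genes whose brightest probe sets read higher in all KD than in all NC arrays. They come from RefSeq (build GRCh38.p14), which gave 7 windows for 5 of the 6 genes, 3 of them for CLIC5. Each window runs from 250 bases before to 50 bases after an annotated start and is written 5′ to 3′ on the gene's own strand. Capitals mark matches, on either strand, to the GC box GGGCGG, the TATA box TATAAA, the E box CACGTG or the AP-1 site TGACTCA.
CLIC3 (chr9:136996519-136996818, minus strand): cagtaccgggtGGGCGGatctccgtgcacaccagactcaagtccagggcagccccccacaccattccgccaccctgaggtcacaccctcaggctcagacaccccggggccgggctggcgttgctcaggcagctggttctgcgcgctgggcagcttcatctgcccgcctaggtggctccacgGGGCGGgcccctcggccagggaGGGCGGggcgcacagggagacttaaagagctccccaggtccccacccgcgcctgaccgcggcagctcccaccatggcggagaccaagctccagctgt
CLIC1 (chr6:31736481-31736780, minus strand): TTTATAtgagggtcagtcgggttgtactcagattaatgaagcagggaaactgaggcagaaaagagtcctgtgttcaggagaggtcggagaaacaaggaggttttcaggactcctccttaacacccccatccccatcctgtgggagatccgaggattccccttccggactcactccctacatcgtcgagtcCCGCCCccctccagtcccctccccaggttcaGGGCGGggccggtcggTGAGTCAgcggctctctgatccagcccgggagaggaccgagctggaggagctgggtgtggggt
CLIC2 (chrX:155334565-155334864, minus strand): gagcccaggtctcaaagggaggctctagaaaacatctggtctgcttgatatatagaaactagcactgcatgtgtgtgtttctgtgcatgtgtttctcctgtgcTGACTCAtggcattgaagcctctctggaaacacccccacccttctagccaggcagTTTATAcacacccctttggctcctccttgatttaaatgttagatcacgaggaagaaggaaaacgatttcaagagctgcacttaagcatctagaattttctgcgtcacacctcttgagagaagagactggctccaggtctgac

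The 3 windows differed in composition. That of CLIC3 had 70.3% G and C, more than 80.5% of the 35116 windows in the RefSeq table, with 20 CpG dinucleotides and 3 GC boxes and none of the other 3 motifs. The CLIC1 window had 59.3% G and C, 13 CpG dinucleotides, 2 GC boxes, 1 TATA box match and 1 AP-1 match, the TATA match lying at the window's first bases. The CLIC2 window was poorer in G and C (47.0%), with 3 CpG dinucleotides, no GC box, 1 TATA box match and 1 AP-1 match. Of all windows, 45% held a GC box, 11.5% a TATA box, 7.26% an E box and 4.95% an AP-1 match. A window of CLIC4, not printed, had 74.7% G and C and 2 GC boxes. No motif was shared by the windows of all 3 genes, and a match is a run of letters, not a measured site.

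Across all arrays, the targeted gene MRPL35 had log2 values of 6.49, 6.44 and 6.56 in the KD arrays against 8.16, 8.05 and 8.36 in the NC arrays (brightest probe set, replicates always in the order 1, 2, 3). It was 3.23-fold lower in KD (limma, adjusted p = 3.77e-06). Its other probe sets were also lower in all KD than in all NC arrays, by 1.34-fold in the dimmest and up to 3.94-fold. NC replicate 2 stood apart on the second principal component, which held 11.8% of the variance against 79.0% on the first, which separated KD from NC. Values without that array are given for CLIC3, CLIC4 and CLIC5. All 12 genes of the epithelial and A549 marker list were measured. Their mean log2 level was 10.64 to 10.68 in KD and 10.19 to 10.23 in NC. Of these, SLC34A2 (4.10 in KD, 4.09 in NC) and EPCAM (6.08 and 5.87) read below the median gene mean of 6.21. Of the 12, 6 rose and 0 fell, against 17.6% and 15.9% of all genes. AKR1C1 and ALDH3A1 rose by 1.13 and 1.01 on the log2 scale (limma, adjusted p = 1.115e-05 and 1.807e-05). CDH1, which encodes E-cadherin, rose by 1.31 on the log2 scale, and KRT18, a simple-epithelium keratin, by 0.50 (limma, adjusted p = 3.96e-05 and 0.000827). Marker lists of fibroblasts (5 genes), leukocytes (4), endothelium (4) and squamous or ciliated airway cells (3) overlapped between the groups in their means. These list means lay below the median gene mean of 6.21. The airway list was the brightest of them, with means between 5.58 and 5.83 over all arrays. Its gene FOXJ1 read above 6.21 in both groups (group mean 6.68 for KD, 6.62 for NC). Only CD14 was called in these lists (0.60 higher in KD, limma adjusted p = 0.00293). Both CD14 probe sets have an x or s suffix. In bulk samples, a change in the cells present and a change of RNA per cell cannot be told apart. The part of these shifts in the CLIC differences was not tested.

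CLIC3 stood far above its control level in every knockdown array. It is the member first found as a nuclear partner of the kinase MAPK15 and later tied to recycling of integrins and of the protease MMP14 from late endosomes, and in secreted form to the enzyme TGM2. On the log2 scale its only probe set gave 8.14, 8.12 and 8.08 for KD and 4.96, 4.98 and 5.35 for NC. The KD arrays lay close together (SD 0.033, n = 3), and NC replicate 3 was above the other NC arrays (SD 0.22, n = 3), with no overlap between the groups. The difference was 3.01 ± 0.11 on the log2 scale (± standard error, from limma's fit over all genes), or 8.07-fold. It was 2.95 without NC replicate 2 and between 2.94 and 3.14 with any 1 array left out. The value rests on 1 probe set, so no other probe set of the gene could be compared with it.

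CLIC1 differed little, but in the same way in all its probe sets. CLIC1, the most studied member, is abundant in many carcinoma cells and can insert into membranes under oxidizing conditions. The brightest of its 3 probe sets gave 11.79, 11.86 and 11.82 in KD and 11.50, 11.51 and 11.61 in NC. All KD arrays were above all NC arrays here and in the other probe sets. The difference was 0.28 ± 0.076, or 1.21-fold, and the other probe sets differed by 0.35 ± 0.086 and 0.30 ± 0.076 (fit over all probe sets). The 2 probe sets with an x suffix, one of them the brightest, can hybridise to several transcripts, and the probe set without it gave the 0.35.

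CLIC2 read near the bottom of the array. CLIC2 binds ryanodine receptors and inhibits their opening in muscle. The brightest of its 3 probe sets gave 3.32, 3.31 and 3.24 in KD and 2.91, 2.90 and 2.93 in NC, a difference of 0.38 ± 0.073, or 1.30-fold. KD was above NC without overlap in all 3 probe sets, with differences from 0.28 to 0.54. Yet only 5.56% to 12.1% of probe sets had a lower mean than these. Background was not measured per probe set, so how much of such values is transcript was not tested. These shares rank probe-set brightness, which depends on the probes' own sequences, and are not levels of the transcripts.

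The probe sets of CLIC4 disagreed in size. CLIC4 moves between cytoplasm, membranes and nucleus, and is needed for normal lumen formation in vessels. The brightest read 8.79, 8.91 and 8.77 in KD and 8.87, 8.36 and 8.82 in NC, so that the groups overlapped and NC replicate 2 alone was low. Its difference was 0.14 ± 0.13, and it was -0.018 without NC replicate 2. A second probe set read 7.95, 7.81 and 7.92 in KD and 7.74, 7.60 and 7.36 in NC, with no overlap and a difference of 0.33 ± 0.11. The dimmest read 5.82, 5.13 and 5.44 in KD and 5.32, 4.68 and 4.55 in NC, with overlap and a difference of 0.61 ± 0.22. The brightest and the dimmest have an s suffix and can hybridise to several transcripts. Averaged over the 3 probe sets, CLIC4 differed by 0.36 ± 0.12.

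CLIC5 and CLIC6 were not distinguishable between the groups. CLIC5 binds ezrin and radixin at the base of hair-cell stereocilia and in podocytes, and CLIC6, a long member with a repeat-rich amino-terminal stretch, interacts with dopamine receptors of the D2-like class. The brightest of 4 CLIC5 probe sets read 3.78, 3.39 and 3.48 in KD and 3.61, 3.80 and 3.53 in NC, a difference of -0.096 ± 0.12. Differences of the 4 ran from -0.096 to 0.099, with the groups overlapping in each. Without NC replicate 2 the brightest differed by -0.021, and the 2 others that were below 0 differed by 0.093 and 0.042. The single CLIC6 probe set read 2.54, 2.47 and 2.67 in KD and 2.59, 2.60 and 2.63 in NC, a difference of -0.045 ± 0.082, again with overlap. CLIC5 had 9.68% to 20.7% of probe sets below it and CLIC6 2.93%, so a change in either would be hard to see here.

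**Figure D1:**
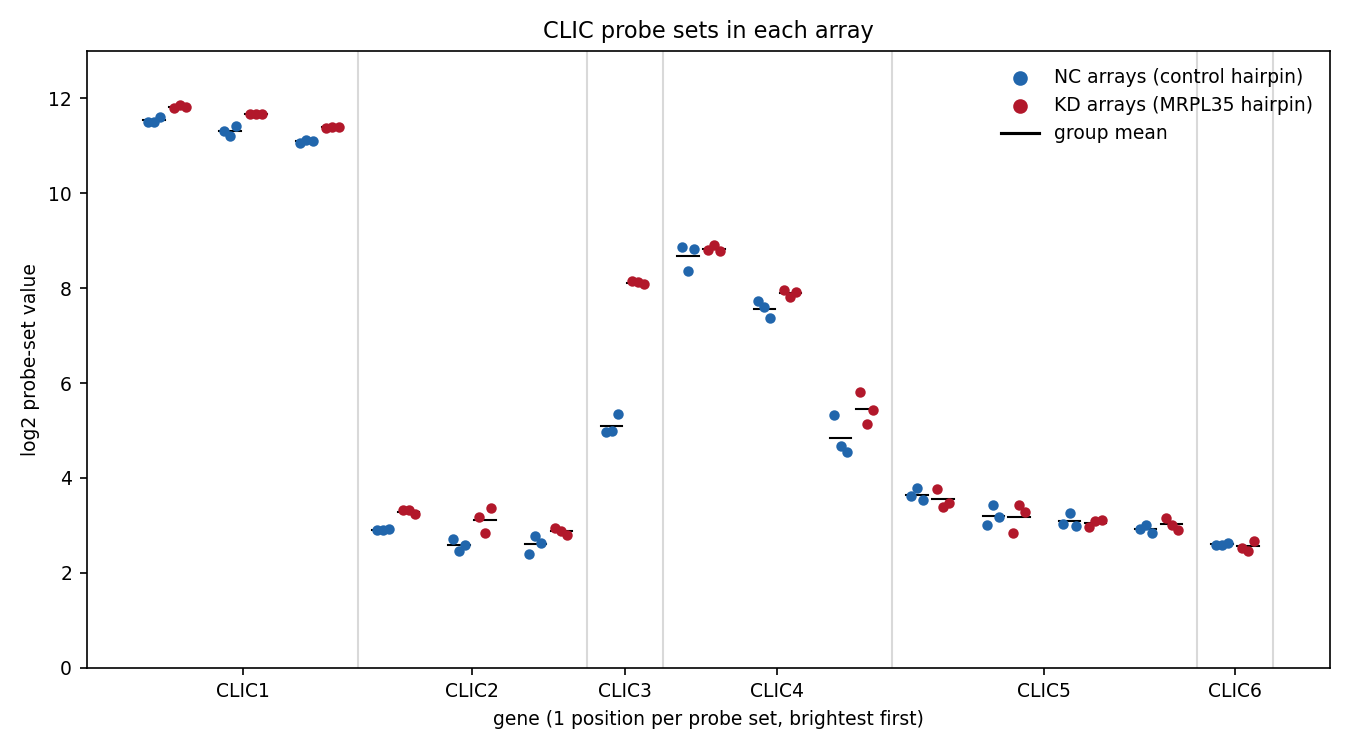
Log2 value of each of the 15 CLIC probe sets in each array, blue for NC and red for KD, with a bar at each group mean (3 arrays each). The CLIC3 groups lie far apart (KD 8.08 to 8.14, NC 4.96 to 5.35), while the other genes differ by at most 0.61 and CLIC2, CLIC5 and CLIC6 lie low on the axis.

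Over the family, 11 probe sets read higher in KD on average and 4 lower, the 4 being 3 of CLIC5 and that of CLIC6. KD lay above NC without overlap in 8 of the 15 (3 of CLIC1, 3 of CLIC2, 1 each of CLIC3 and CLIC4), where 22.7% of all probe sets did so. It lay below NC without overlap in 0, against 20.1% of all. By limma's fit over the 45278 probe sets (adjusted p under 0.05 is called), 7 of the 15 were called higher and 0 lower, where 16.7% of all were called higher and 14.3% lower. Leaving out KD replicate 3 or KD replicate 1 made the number called higher 3 and 4. Of all probe sets, 5906 and 6080 were then called higher, against 7579 with all arrays. Of the 6 genes, each by its brightest probe set, 3 were called higher (CLIC1, CLIC2 and CLIC3) and 0 lower, against 17.6% and 15.9% of all genes. With KD replicate 2, KD replicate 3 or NC replicate 1 left out, 2 of the 6 were called higher. Of all genes, 2677, 2612 and 2839 were then called higher, against 3207. Leaving out dim features also gave 2, while averaging probe sets or leaving out x and s probe sets gave 4. At those 3 settings 3197, 3269 and 2828 of all genes were called higher. Since this contrast chose the family by its CLIC3 difference, and CLIC3 is among those called, nothing is read from these counts.

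**Figure D2:**
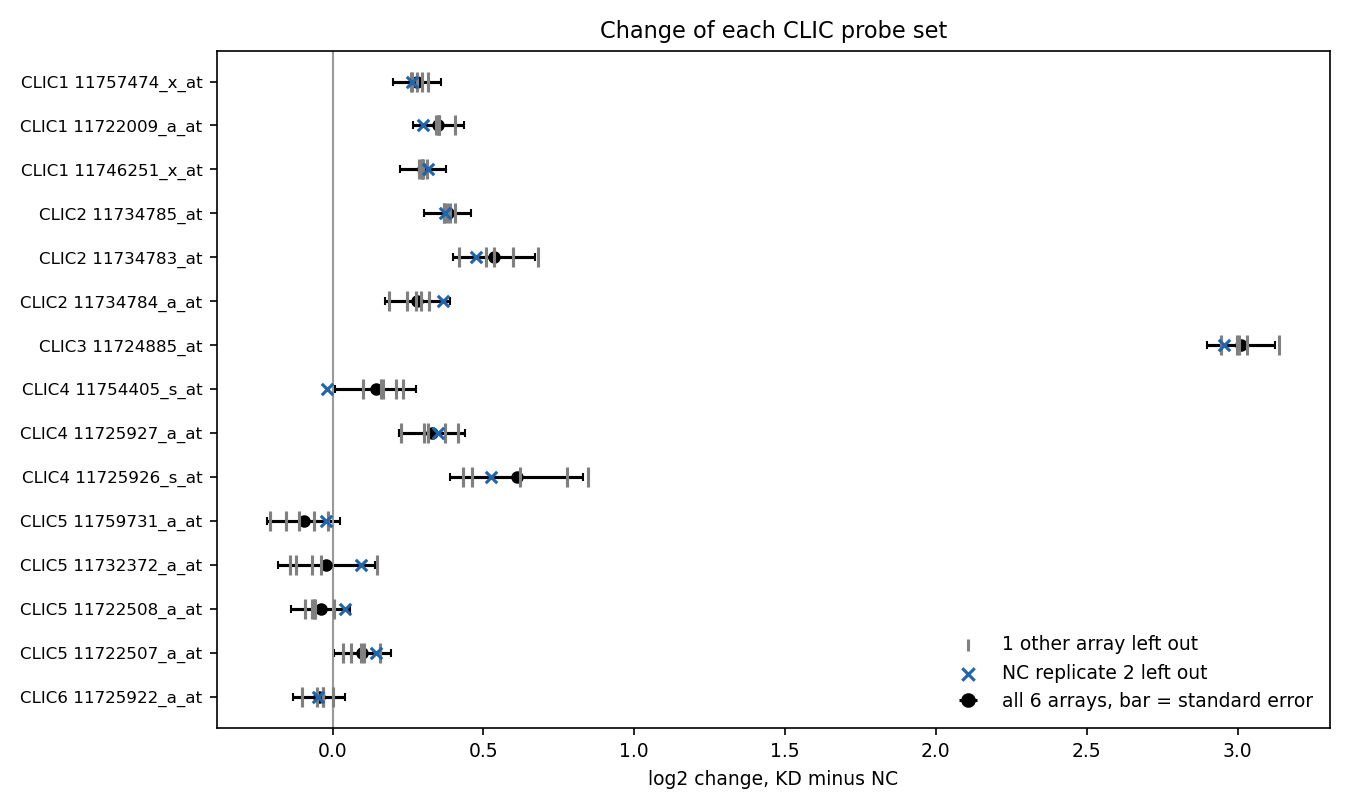
Log2 difference between KD and NC for each CLIC probe set (points, all 6 arrays; bars, standard error), with the values when 1 array is left out (grey ticks; blue crosses, NC replicate 2 left out). CLIC3 keeps 2.94 to 3.14, and the brightest CLIC4 probe set falls to -0.018 without NC replicate 2.

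The genes with array values most like those of CLIC3, each gene taken relative to its own NC mean, were FAM228B, IFIT1, VTN, SCARNA14 and TRIM22. FAM228B differed from CLIC3 by 0.059 (root-mean-square log2 difference over 6 arrays), IFIT1 by 0.20, VTN by 0.24, SCARNA14 by 0.32 and TRIM22 by 0.34. With 2 groups, such likeness mostly reads the size of the difference between KD and NC, which was 3.06 for FAM228B and 2.57 for TRIM22. FAM228B (4.47 against 4.22 and 4.12), VTN and TRIM22 had their highest NC value in replicate 3, as CLIC3 did, while IFIT1 and SCARNA14 did not. The genes were chosen by likeness over the same 6 arrays, so nothing is read from this. The FAM228B difference was 1.45 with x and s probe sets left out.

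The genes beside CLIC3 on chromosome 9 did not share its difference. Of the 3 measured genes on either side, in RefSeq order, 1 of 6 rose and 0 fell (limma over all genes), where 17.6% of all genes rose and 15.9% fell. NPDC1, the farthest on one side, rose by 0.34 ± 0.083 (limma, adjusted p = 0.0117). The adjacent genes PAXX, a factor of DNA end joining, and ABCA2, a lipid transporter, differed by 0.035 and 0.16 without passing (limma, adjusted p = 0.809 and 0.226). PAXX read 8.51, 8.61 and 8.71 in KD and 8.58, 8.52 and 8.62 in NC, so its groups overlapped.

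CLIC4, CLIC5 and CLIC6 share a chromosomal setting that the others lack in this window. Each had 1 gene of the RUNX transcription factor family and 1 of the RCAN calcineurin regulators among its 6 neighbours: RUNX3 and RCAN3 beside CLIC4, RUNX2 and RCAN2 beside CLIC5, RUNX1 and RCAN1 beside CLIC6. RUNX1 read 6.10, 6.07 and 5.87 in KD and 6.54, 6.55 and 6.73 in NC, and fell by 0.59 on the log2 scale (limma, adjusted p = 0.00126). RCAN1 rose by 0.32 (limma, adjusted p = 0.0101), a call lost with probe sets averaged per gene or with x and s probe sets left out. The other 4 of these genes did not pass. Over the 36 neighbours of the 6 members, 4 rose and 5 fell, near or below the 17.6% and 15.9% of all genes. The rises were NPDC1, TMLHE beside CLIC2 (0.81), RSRP1 near CLIC4 (0.41) and RCAN1. The falls were RUNX1, MSH5, VAMP7 near CLIC2 (-0.55), SRRM1 beside CLIC4 (-0.49) and SMIM11 near CLIC6 (-0.37). The SMIM11 call was lost in 5 of 14 alternatives, with adjusted p up to 0.149 in limma (probe sets averaged). Between a member and its immediate neighbours no shared size was seen: TMLHE rose beside the dim CLIC2, while MSH5 beside CLIC1 fell by 0.42 on the log2 scale (limma, adjusted p = 0.0338), a call lost when NC replicate 1 or any 1 of the KD arrays was left out. The RSRP1 call was lost without KD replicate 1.

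**Figure D3:**
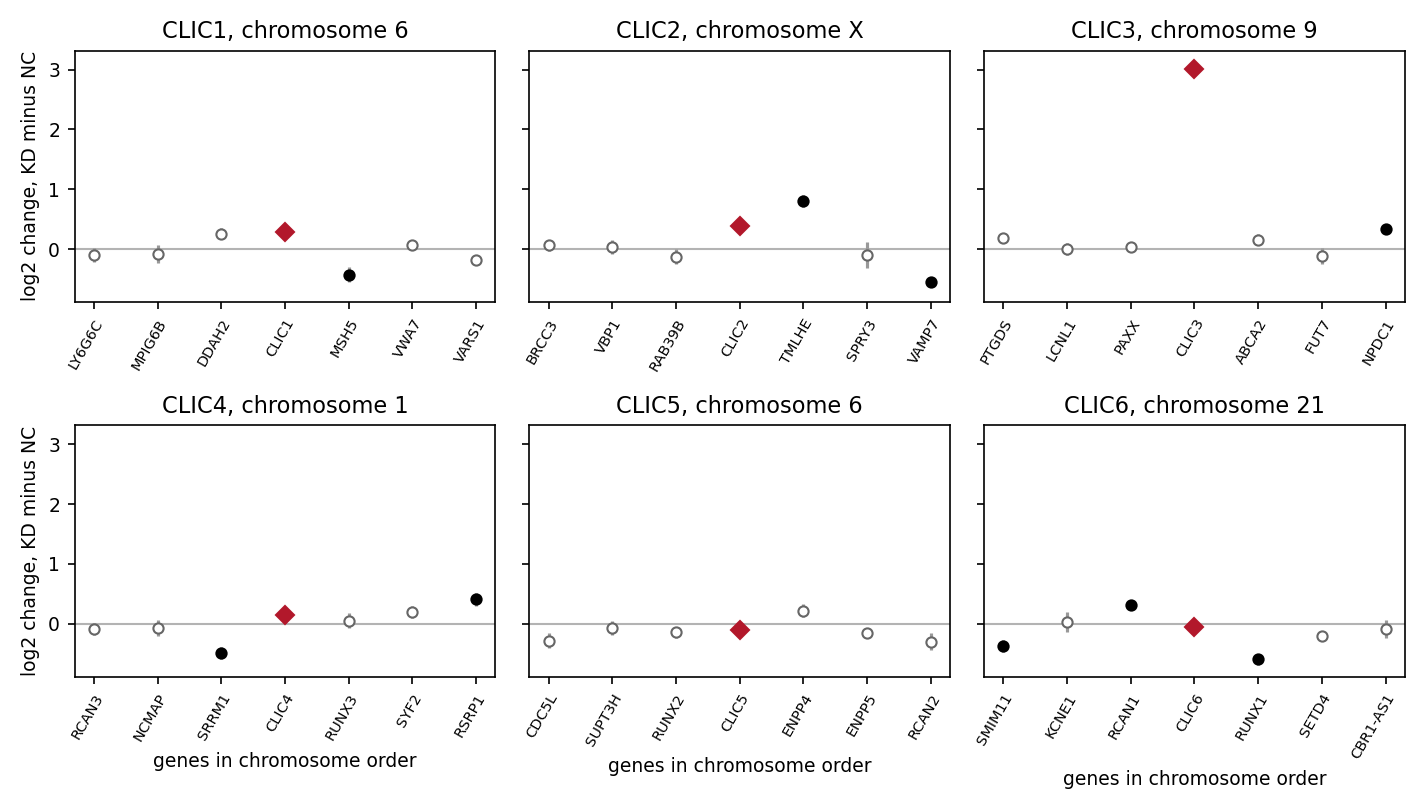
Log2 difference between KD and NC (bars, standard error) for each CLIC gene (red diamonds) and the 3 measured genes on either side in chromosome order, filled where limma's adjusted p is under 0.05 and open otherwise. CLIC3 stands at 3.01 among neighbours between -0.11 and 0.34, and a RUNX and an RCAN gene flank CLIC4, CLIC5 and CLIC6.

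Genes whose proteins are known to bind or act with CLIC members differed both ways in RNA. Those other than NUTF2, TGM2, MYO6 and RAB11A are named here after their values were seen. Of 29 measured partner genes 9 rose, 5 fell and 15 did not pass (limma), which is 31.0% higher and 17.2% lower against 17.6% and 15.9% of all genes; their median difference was 0.064, against -0.018 over all genes. The largest was in NUTF2, the carrier that brings the GTPase RAN into the nucleus and is tied to nuclear import of CLIC4. NUTF2 read 9.02, 9.04 and 9.02 in KD and 11.36, 11.38 and 11.33 in NC, and was 5.03-fold lower (limma, adjusted p = 7.83e-07). Of its 8 probe sets 6 fell, and 2 dim ones differed by -0.12 and 0.052 without passing. RAN itself fell by 0.45, a call lost with x and s probe sets left out (-0.043, limma adjusted p = 0.840).

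Partners tied to CLIC3, and the listed GTPases of recycling endosomes, did not all go one way. TGM2, the transglutaminase that secreted CLIC3 activates, read 11.92, 11.92 and 11.97 in KD and 10.74, 10.58 and 10.76 in NC, and rose 2.37-fold (limma, adjusted p = 7.86e-06). RAB11A, a GTPase of recycling endosomes, rose by 0.85 (limma, adjusted p = 4.32e-05) and its paralogue RAB11B by 0.40. ITGA5, the fibronectin-receptor subunit carried with CLIC3, fell by 0.66 (limma, adjusted p = 0.00127), a call lost with x and s probe sets left out (-0.36, limma adjusted p = 0.0965). Its partner ITGB1 read 12.95 to 13.01 in all 6 arrays. RAB25 (-0.19), MMP14 (0.064) and MAPK15 (0.15), did not pass (limma, adjusted p = 0.317, 0.717 and 0.486) and overlapped between groups.

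Among partners at the cortical cytoskeleton, EZR, encoding ezrin, rose by 0.63 ± 0.13, while RDX, encoding radixin, fell by 0.48 (limma, adjusted p = 0.00478 and 0.00178). MSN, encoding moesin, differed by -0.077 without passing (limma, adjusted p = 0.549) and overlapped between groups. Of the scaffolds that join such proteins to membranes, NHERF1 fell by 0.55 and the dim NHERF2 rose by 0.66, and PODXL, the podocalyxin of apical surfaces, rose by 0.69 (limma, adjusted p = 0.00408, 0.000413 and 0.000318). MYO6, the minus-end-directed myosin found with CLIC5 in hair cells, rose 2.07-fold (limma, adjusted p = 0.000198), with 4 of its 5 probe sets passing and a dim one at 0.035. IQGAP1, a scaffold of actin, rose by 0.49, and PPM1A, a phosphatase of TGF-beta signalling whose action nuclear CLIC4 opposes, by 0.71. The PPM1A call was lost with its probe sets averaged (0.14, limma adjusted p = 0.366).

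Relatives by fold or chemistry were called in both directions. Of 19 measured glutathione transferase genes 6 rose and 2 fell (31.6% and 10.5%), with a median of 0.14. MGST3, a membrane enzyme that shares the activity and not the fold, rose 1.90-fold (10.72 to 11.01 in NC, 11.79 to 11.82 in KD). GSTP1, the main soluble form in lung tumour lines, rose by 0.60, and GSTZ1, of tyrosine breakdown, by 0.53. GDAP1, a mitochondrial outer-membrane relative, fell by 0.59 (limma, adjusted p for these from 7.56e-05 to 0.00213). The falls numbered 1 with probe sets averaged per gene. Of 14 genes of the glutaredoxin and thioredoxin system 4 rose and 2 fell (28.6% and 14.3%), with a median of 0.012. GLRX, a glutaredoxin, rose by 0.70, TXNRD1, thioredoxin reductase, by 0.51, and GSS, the last enzyme of glutathione synthesis, by 0.48, while GCLC, its first, fell by 0.40 (limma, adjusted p from 0.000659 to 0.00714). The falls there numbered 1 without NC replicate 3 or any 1 of the KD arrays.

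Chloride channels of other families split much as all genes did. Of 36 measured genes 7 rose and 5 fell (19.4% and 13.9%), with a median of -0.015, and CFTR, the cystic fibrosis channel, was dim and overlapped (KD arrays 3.10 to 3.15, NC arrays 3.05 to 3.21). OSTM1, the partner subunit of the lysosomal exchanger CLCN7, rose 2.03-fold, and ANO5, of the anoctamins, by 0.70. CLNS1A, which despite its name works in assembly of splicing particles, fell by 0.80, and LRRC8C, a subunit of volume-regulated channels, by 0.66 (limma, adjusted p for these from 6.57e-05 to 0.00270). The falls numbered 3 without KD replicate 3 or NC replicate 3, and with x and s probe sets left out. Of 20 chloride cotransporters and exchangers 5 rose and 1 fell (25.0% and 5.00%), with a median of -0.012. SLC26A11 rose 2.28-fold, and the potassium chloride cotransporters SLC12A4 and SLC12A7 rose by 1.11 and 0.91 (limma, adjusted p = 1.11e-05, 0.000555 and 7.28e-05). SLC4A3, an anion exchanger, rose by 0.43 (limma, adjusted p = 0.0133), a call lost without KD replicate 3 or NC replicate 1. Of the 13 probe sets of SLC12A4, 5 did not pass, and the calls of SLC12A4 and SLC12A7 were lost with x and s probe sets left out (0.11 and 0.31).

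**Figure D4:**
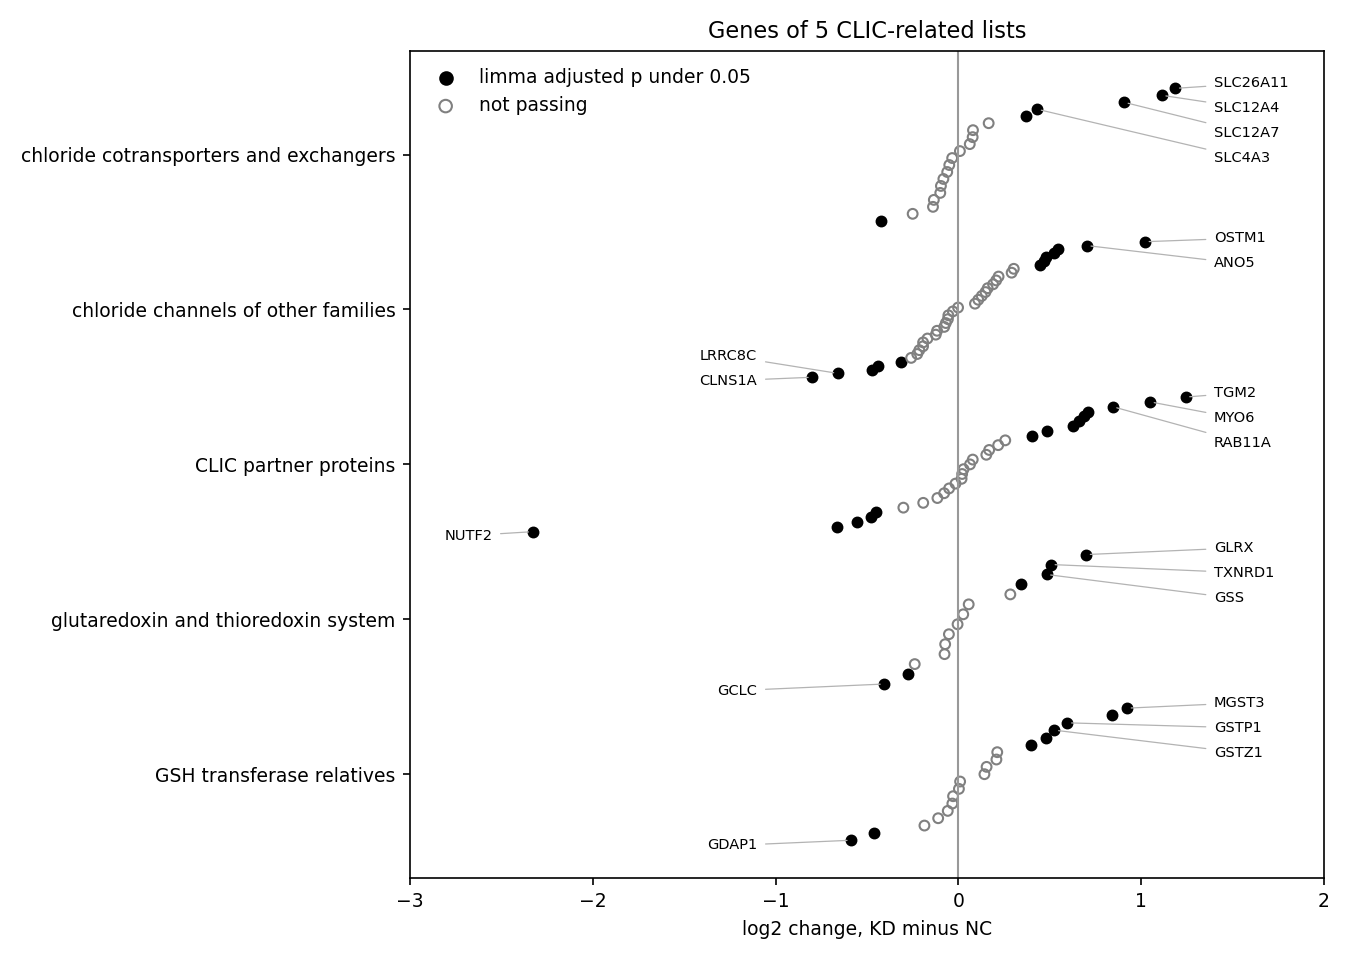
Log2 difference between KD and NC for each measured gene of 5 lists related to the CLIC family, 1 point per gene in order of its difference, filled where limma's adjusted p is under 0.05. NUTF2 (-2.33) lies far from the other partner genes, which end at 1.24 (TGM2), and the other lists lie between -0.80 and 1.19.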

How the data were processed

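Per the labels' protocols, RNA was isolated by Trizol, copied into biotinylated cRNA and hybridised to 1 Affymetrix array a sample. The deposited probe-set values were used unchanged, on a log2 scale. Their log base, the summarisation and the normalization are not given in the sources used here, and log2 was inferred from their range (2.05 to 14.3, array medians 5.49 to 5.55). Fold changes may therefore be compressed, and each change is relative to most other genes. Scanner files and per-probe background were not used here. The RefSeq gene table (GRCh38.p14) served for gene names and order only, and promoter windows with their coordinates came from RefSeq's promoter table of the same build, searched for 4 motifs on both strands. Probe sets with several symbols (1333), none (2682) or for controls (102) were left out.

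Each gene was represented by its brightest probe set. Genes (18244) and probe sets (45278) were tested separately by two-sided moderated tests in limma 3.58.1 (R 4.3.3; lmFit, then eBayes) with group as the only term, with Benjamini-Hochberg adjustment over all of them, at a threshold of 0.05 and with no filter on dim values. Residual degrees of freedom were 4, and limma's prior added 4.67. Standard errors of a gene's brightest probe set are from the gene fit, and others from the probe-set fit. The 10 gene lists hold 156 genes, 146 of them measured; the other 10 genes are not analysed here. The rule for named genes took up to 4 per list with the largest called changes, no overlap between groups and a higher mean at or above the median gene mean of 6.21, or, where no gene of a list met this, the gene with the smallest p (CD14, DCN, KDR and DNAI1). The CLIC members, the lists and the alternatives were chosen with earlier results of these data known. Figures were drawn with matplotlib 3.10.9. The fit was also run on simulated data with independent arrays, which checks the code and not these data. No result of that run is used here.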

Additional observations from a re-analysis of the deposited data

How the results depend on the processing

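The CLIC3 difference stayed between 2.94 and 3.14 over its 14 alternatives. These were each of the 6 arrays left out, quantile normalization, median centring, a robust trended fit, array weights and a replicate block. The rest were probe sets averaged, and x and s probe sets or dim features left out. Both ends of the range came with an array left out. The robust trended fit, the block and the dim filter do not alter a gene's estimated difference. Nor could the probe-set alternatives alter that of CLIC3, whose only probe set has no x or s suffix. CLIC1 stayed between 0.25 and 0.35 over 14, and CLIC2 between 0.37 and 0.41 over the 13 that kept it, being dropped with CLIC5 and CLIC6 by the filter on dim features. CLIC4 ranged from -0.018 (without NC replicate 2) to 0.36 (mean of probe sets). CLIC5 stayed between -0.21 and -0.014, and CLIC6 between -0.10 and 0.00020. Scaling moved the median of all genes only from -0.018 to -0.0029 (quantile) or -0.023 (centring).

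With x and s probe sets left out, fewer probe sets were tested, and 4993 were called higher and 4157 lower, against 7579 and 6465. The share called under this setting is not given here. Genes called numbered 2828 higher and 2427 lower, against 3207 and 2903. Partner genes higher then numbered 8 and lower 3, chloride channels higher 7 and lower 3, and cotransporters higher 3 and lower 0. Glutathione transferases higher stayed at 6 and lower at 2, and glutaredoxin and thioredoxin genes numbered 3 higher and 2 lower. How many genes of each list were measured under this setting is not given here. With the mean of probe sets, glutathione transferases lower numbered 1 and cotransporters lower 0. With 1 array left out, glutaredoxin and thioredoxin genes lower numbered 1 to 2, and chloride channels lower 3 to 5. Samples were not treated as paired by replicate number. Deviations of same-numbered arrays correlated at 0.25, 0.26 and -0.096. Differently numbered arrays were not compared, so these values cannot settle whether the samples were paired. With the replicate block 3262 genes were called higher and 3014 lower, against 3207 and 2903. Of 50 named genes that passed, 40 did so under every alternative that could be run. Without KD replicate 3, PAXX (-0.016; 1 array left out, up to 0.085) and MMP14 (-0.030; up to 0.16) changed sign, as did ITGB1 (-0.063) with probe sets averaged, none of them passing. The causes were not tested. With 3 arrays a group and no background values, small differences of dim probe sets cannot be resolved. Pseudocounts, listed for values on a linear scale, were not run.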
